A study of Mus musculus with 7 samples.

Results

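The nuclear genes of oxidative phosphorylation were followed across the cell types of the mouse pancreas. All genes were taken whose symbol starts with Nduf, Uqcr, Cox4, Cox5, Cox6, Cox7, Cox8 or Atp5, which gave 103 of the 33864 genes listed in the count tables. By role, 38 of the rows belong to complex I, 8 to complex III, 20 to complex IV and 17 to ATP synthase, 9 are assembly factors, and 11 carry a pseudogene biotype in RefSeq. Ndufa4 and Ndufa4l2 were counted with complex IV, of which NDUFA4 is a subunit despite its name.

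Oxidative phosphorylation takes place in the inner mitochondrial membrane. Complex I (NADH dehydrogenase), complex III (cytochrome bc1) and complex IV (cytochrome c oxidase) pass electrons to oxygen and pump protons, and ATP synthase uses the returning protons to make ATP. Most subunits are encoded in the nucleus, while a small core set is encoded in mitochondrial DNA, and some subunits of complex IV and ATP synthase exist as isoforms encoded by separate genes. Acinar cells, which make and secrete the digestive enzymes, are rich in mitochondria.

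Single-cell RNA sequencing with the 10x Genomics 3′ v3 assay was available for the pancreata of 7 C57BL/6 mice of 2 months, with 1 library per mouse. The 2 WT mice and the 3 i4F mice received doxycycline in the drinking water at 1 mg/ml for 7 days. The i4F mice (strain i4F-B) carry, in heterozygous form, a ubiquitous transgene for the reprogramming factors c-Myc, Klf4, Oct4 and Sox2, which doxycycline switches on and which sits in the Pparg gene, and the transactivator rtTA in Rosa26, so that the factors are not restricted to 1 cell type. This line was made on the C57BL/6J.Ola.Hsd background. The 2 caerulein mice had the wild-type genotype and received 7 injections a day of caerulein, a cholecystokinin analogue that causes mild acute pancreatitis, at 100 µg/kg on 2 days. Doxycycline is not stated for the caerulein mice, so that the caerulein and WT groups may differ in this agent as well.

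The libraries held 4327 to 15138 cells and 15469018 to 64784216 unique molecular identifiers (UMIs), each standing for 1 captured mRNA molecule. Cells carried the cluster labels deposited by the authors, and labels that contain the word acinar, ductal, stellate or endothelial were pooled into 4 classes, which held 594 to 2130, 211 to 753, 1138 to 4393 and 276 to 1212 cells per mouse. Any pair of libraries shared 3 to 39 cell barcodes. The ductal, stellate and endothelial classes carried their own markers, at levels that differed between groups. In WT, i4F and caerulein mice, ductal markers took 2.31% to 2.42%, 2.49% to 3.04% and 2.63% to 2.88% of ductal UMIs. Stellate markers took 4.21% to 4.55%, 2.34% to 3.65% and 3.62% to 4.02% of stellate UMIs. Endothelial markers took 1.44% to 1.49%, 0.983% to 1.15% and 0.858% to 1.24% of endothelial UMIs. Of the 30 acinar markers, 19 have no row in the tables. The acinar markers with a row took 5.20% to 5.76% of acinar UMIs in WT, 0.343% to 2.84% in i4F and 0.356% to 0.401% in caerulein mice, and ductal markers took 0.187% to 0.274%, 0.437% to 1.31% and 1.33% to 1.51%, so that in the caerulein mice, i4F 1 and i4F 2 the acinar class held more ductal than listed acinar marker RNA. The library of i4F 3 stood apart by its depth, with a median of 1248.5 UMIs per cell against 1986 to 4247 in the others. The library names fall into 2 series, of which one holds WT 1 and all i4F mice and the other WT 2 and both caerulein mice. What the series stand for is not stated.

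UMIs of the members were found in every cell type. Of the 103 genes, 66 had at least 1 UMI in each of the 92 sets of cells defined by library and label with 20 cells or more, 62 had a mean of at least 100 UMIs per 1000000 UMIs (CPM), and 11 stayed under 1 CPM. Single UMIs can come from free RNA, and the acinar markers with a row, which took 5.20% to 5.76% of acinar UMIs in WT mice, also took 0.0461% to 0.0614% of ductal and 0.0981% to 0.154% of endothelial UMIs there, so that a UMI of a member in a label is not read as expression. Since every UMI is a molecule of a 3′ tag, CPM compares numbers of captured molecules between genes and needs no scaling to length. Averaged over the class sums, the members with the highest levels were Cox4i1 at 1273 CPM, Cox8a at 884 CPM and Cox6b1 at 554 CPM in complex IV, and Atp5d (the delta subunit) at 772 CPM, Atp5b (the catalytic beta subunit) at 711 CPM and Atp5e (the epsilon subunit) at 588 CPM in ATP synthase. Complex III was led by its small subunits Uqcrh at 645 CPM, Uqcrq at 616 CPM and Uqcrb at 404 CPM. Among the genes with the Nduf prefix, Ndufa4 stood at 544 CPM, and the accessory subunits of complex I Ndufa13 and Ndufb9 at 479 and 430 CPM.

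Promoter sequences are shown for 4 members to which the comparisons below return, since Cox5a showed the largest rise in i4F stellate cells, Cox5b and Cox6a1 rose there and hold a motif, and Atp5g1 stood out in acinar cells. Cox5a, Cox5b and Cox6a1 encode subunits of complex IV and Atp5g1 the c subunit of the rotor ring of ATP synthase. RefSeq windows (GRCm38.p6) were matched for 74 of the 103 members. The windows cover 250 bases before and 50 bases after the start of each gene, 300 bases in all, and the printed part ends before the first base of the gene in GENCODE vM21. Capitals mark the NRF1 half-site GCGCATG, read on either strand (CATGCGC in reverse). In Cox6a1 the matches on both strands overlap, and an ETS core 16 to 10 bases before the RefSeq start lies past the printed part. The printed parts of Cox5a and Atp5g1, and the rest of their windows, hold none of the motifs searched.
Cox5a, chr9:57520982-57521231, plus strand: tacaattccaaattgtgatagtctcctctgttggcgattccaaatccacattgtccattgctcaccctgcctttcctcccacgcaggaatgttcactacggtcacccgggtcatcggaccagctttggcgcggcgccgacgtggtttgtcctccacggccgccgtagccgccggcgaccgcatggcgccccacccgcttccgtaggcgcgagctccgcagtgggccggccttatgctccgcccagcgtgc
Cox5b, chr1:36691237-36691448, plus strand: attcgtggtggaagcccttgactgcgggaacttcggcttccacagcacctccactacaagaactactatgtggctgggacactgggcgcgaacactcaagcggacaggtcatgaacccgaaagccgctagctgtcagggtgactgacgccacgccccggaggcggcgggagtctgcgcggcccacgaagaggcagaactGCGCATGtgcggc
Cox6a1, chr5:115348982-115349208, minus strand: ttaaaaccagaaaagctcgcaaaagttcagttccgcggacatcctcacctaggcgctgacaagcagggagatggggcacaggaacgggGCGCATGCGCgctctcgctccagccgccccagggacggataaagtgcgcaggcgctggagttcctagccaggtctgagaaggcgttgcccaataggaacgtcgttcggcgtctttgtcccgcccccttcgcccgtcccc
Atp5g1, chr11:96075671-96075881, minus strand: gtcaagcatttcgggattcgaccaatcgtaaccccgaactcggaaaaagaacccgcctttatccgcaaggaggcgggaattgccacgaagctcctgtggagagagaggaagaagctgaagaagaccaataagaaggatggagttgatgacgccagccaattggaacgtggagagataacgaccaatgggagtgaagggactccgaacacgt
Windows were searched on both strands for letters associated with nuclear respiratory factor 1 (NRF1), ETS-family factors and YY1, all known in nuclear genes of the respiratory chain. GCGCATG was found in 14 of 74 member windows (18.9%) and in 4.41% of the windows of all 27025 genes. The ETS core CCGGAAG was found in 16 (21.6%) against 9.93%, and the YY1 core AAGATGG in 12 (16.2%) against 7.28%. At least 1 of the 3 was present in 34 member windows (45.9%) and in 19.5% of all windows. The median GC content of the 250 bases before the start was 56.4% in the 79 windows of members and 52.4% in all 32851 windows, some genes having several. These are matches of letters and not bound sites. Windows of Atp5a1, Atp5mpl, Atp5o.1, Cox4i1, Cox4i2, Cox6a2, Cox6c, Cox8c, Ndufa2, Ndufa4l2, Ndufaf6, Ndufb4c, Ndufb9, Ndufs1, Uqcrb, Uqcrc2 and Uqcrq and of the pseudogene rows were not used here.

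To see where the members weigh most, their UMIs were summed as a percent of all UMIs of each library and label, as a description without a test because the labels came from clustering on all genes. The values ran from 0.778% to 3.55%. The highest values were those of the smooth muscle label in the caerulein mice, at 3.55% and 3.10%, of WT 2 acinar cells, at 3.16%, and of the WT 2 label activated pancreatic stellate, at 3.03%. The acinar totals lack the acinar markers that have no row. The lowest values belonged to the label Follicular_B_lymphocytes of the i4F mice, at 1.17%, 1.01% and 0.778%, and to their label Macrophages_2, at 0.970% and 0.966% in i4F 1 and i4F 2. The markers went against both names. Plasma cell markers took 1.60% to 2.31% of UMIs under Follicular_B_lymphocytes and B cell markers 0.0462% to 0.115%. Under Macrophages_2 of i4F 1 and i4F 2, neutrophil markers took 9.09% and 13.5% and macrophage markers 0.357% and 0.196%. The same held for Macrophages_3 of the caerulein mice, with neutrophil markers at 5.12% and 5.47%, where the members made up 1.31% and 1.34%. The label Macrophages_1 reached 2.76% and 2.63% in the caerulein mice against 2.01%, 1.96% and 1.86% in the i4F mice and 1.31% and 1.34% in WT mice. In WT 1 and WT 2 the label Macrophages_2 stood at 1.47% and 1.96%, so that WT 2 reached the i4F values there. The sets of labels differ between conditions, and labels of the same name need not hold the same cells.

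In the acinar class the members made up 2.52% and 3.16% of all UMIs in WT 1 and WT 2, 2.51%, 2.42% and 2.23% in i4F 1 to 3, and 2.90% in both caerulein mice. Only 11 of the 30 acinar markers have a row, so that the acinar totals lack the UMIs of the others. How far this raised the acinar shares in each group was not tested. In ductal cells the values were 1.89% and 2.42% in WT, 2.39%, 2.12% and 2.14% in i4F, and 2.90% and 2.86% in caerulein mice. Stellate cells, the collagen-producing mesenchymal cells of the pancreas, held 1.35% and 1.59% in WT, 2.56%, 2.48% and 1.89% in i4F, and 2.67% and 2.51% in caerulein mice. All stellate values of treated mice thus lay above both WT values, with i4F 3 closest to them. Endothelial cells, which line the vessels, held 1.34% and 1.58% in WT, 2.36%, 2.16% and 1.63% in i4F, and 2.32% and 2.08% in caerulein mice, where i4F 3 almost reached WT 2.

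**Figure D1:**
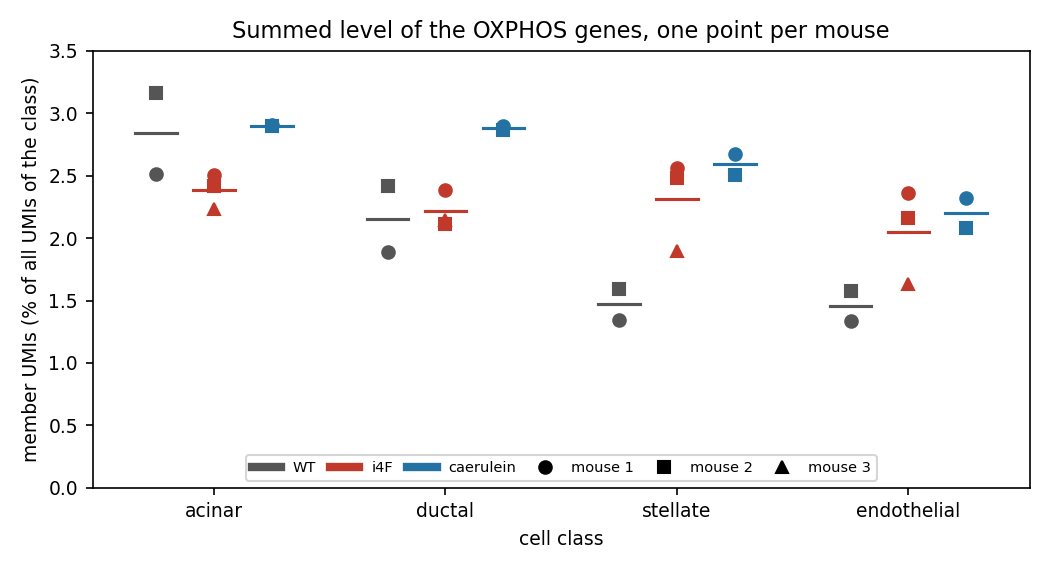
Share of member UMIs in all UMIs of the class (vertical axis, percent) for 4 cell classes, with 1 point per mouse (shape gives the mouse number) and a bar at the group mean. WT stellate and endothelial cells sit at 1.34% to 1.59%, below all i4F and caerulein mice, while the WT acinar points at 2.52% and 3.16% enclose the caerulein mice.

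On the log2 scale the summed level of the stellate class was higher than WT by 0.65 in i4F and 0.82 in caerulein mice, and that of the endothelial class by 0.48 and 0.60, beside a pooled SD between mice of 0.19 and 0.22. The stellate means were 1.47% ± 0.173 (SD, n = 2) in WT, 2.31% ± 0.364 (SD, n = 3) in i4F and 2.59% ± 0.116 (SD, n = 2) in caerulein mice. Each complex was higher than in WT. Complex I had a mean of 0.496% in WT, 0.711% in i4F and 0.804% in caerulein stellate cells, complex III stood at 0.144%, 0.273% and 0.279%, complex IV at 0.403%, 0.644% and 0.739%, and ATP synthase at 0.403%, 0.656% and 0.739%. In ductal cells the log2 difference from WT was 0.05 in i4F and 0.43 in caerulein mice with a pooled SD of 0.14, and in acinar cells it was -0.25 and 0.04 with a pooled SD of 0.13. The acinar value for caerulein was -0.25 when the 100 genes with the most UMIs were set aside from the total, so that its sign depended on the scale.

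Other quantities moved with the members. Ribosomal protein genes took 10.5% and 12.2% of stellate UMIs in WT, 15.7% to 18.8% in i4F and 15.4% to 17.0% in caerulein mice, and in endothelial cells 9.42% and 10.1% in WT against 12.9% to 16.4% in the other mice. Transcripts of mitochondrial DNA did not follow the nuclear members and took 0.700% to 1.28% of stellate UMIs in WT, 0.736% to 0.880% in i4F and 0.413% to 0.569% in caerulein mice. The median UMI number per stellate cell was 4700 and 3605 in WT, 9918, 8942 and 2554.5 in i4F, and 7257 and 3475 in caerulein mice, and i4F 3, the shallowest, also had the lowest member share among the treated mice. Immediate early genes, which respond to tissue dissociation, took 2.18% and 2.72% of stellate UMIs in WT. They took 0.382%, 0.453% and 1.53% in i4F and 0.677% and 0.748% in caerulein mice, so that i4F 3 lay nearest to WT. Markers of macrophages (8 of 8 with a row) took 0.0014% to 0.0040% of stellate UMIs in WT, 0.0199% to 0.0402% in i4F and 0.0936% to 0.145% in caerulein mice. The part of these quantities in the member levels was not tested, and since levels are shares of the total RNA, more member RNA and less other RNA cannot be told apart.

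The WT mice differed between themselves in the same direction in every cell type. The summed share was higher in WT 2 than in WT 1 in 15 of 15 labels, and 65 of 90 members tested in acinar, 68 of 87 in ductal, 72 of 90 in stellate and 63 of 79 in endothelial cells were lower in WT 1, with median log2 differences of 0.35, 0.44, 0.45 and 0.40. With only 2 WT mice, this spread enters every comparison with WT, and WT 1 belongs to the same library name series as the i4F mice while WT 2 belongs to that of the caerulein mice.

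For tests, UMIs were summed per mouse and class and all genes were fitted with edgeR's quasi-likelihood test, with Benjamini-Hochberg adjustment over all genes of the class and a threshold of 0.05 on the adjusted p. Levels per mouse are given below as scaled CPM, the CPM after the TMM scaling of each library. To pass the filter on low counts, a gene needed enough UMIs in at least as many mice as the smallest group holds. Of the 103 members, 90 passed it in acinar, 87 in ductal, 90 in stellate and 79 in endothelial cells. The rest had too few UMIs to be tested. The mice are separate animals, so that p-values describe the spread between animals, but with 2 or 3 mice per group.

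The stellate class sets different labels of the groups against each other. In WT 1 and WT 2 it held 828 and 1911 cells labelled Quiescent_Pancreatic_Stellate_1, 196 and 435 labelled Quiescent_Pancreatic_Stellate_2 and 114 and 161 labelled activated pancreatic stellate. In i4F 1 to 3 it held 4249, 2555 and 113 cells labelled Activated_Pancreatic_Stellate_1 and 144, 126 and 1167 labelled Activated_Pancreatic_Stellate_2, and in the caerulein mice 3675 and 2040 cells labelled Activated_Pancreatic_Stellate_1. No quiescent label occurs in treated mice, so that a change within a kind of stellate cell and a change in the makeup of the class cannot be told apart.

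Stellate cells were the class in which members passed the test in number. Against WT, 36 of 90 members were higher in i4F and 35 in caerulein mice, where 12.0% and 9.99% of all 14818 genes were called higher. Only 2 members were lower in each comparison, Ndufa4l2 and Cox4i2, where 8.58% and 7.1% of all genes were called lower. The median log2 change of the members was 0.80 in i4F and 0.95 in caerulein mice, against 0.02 and -0.04 over all genes tested. DESeq2 called 54 and 60 members. Here and below, counts by DESeq2 or at an unadjusted p under 0.05 stand without the share of all genes. They therefore do not show whether more members than other genes passed.

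**Figure D2:**
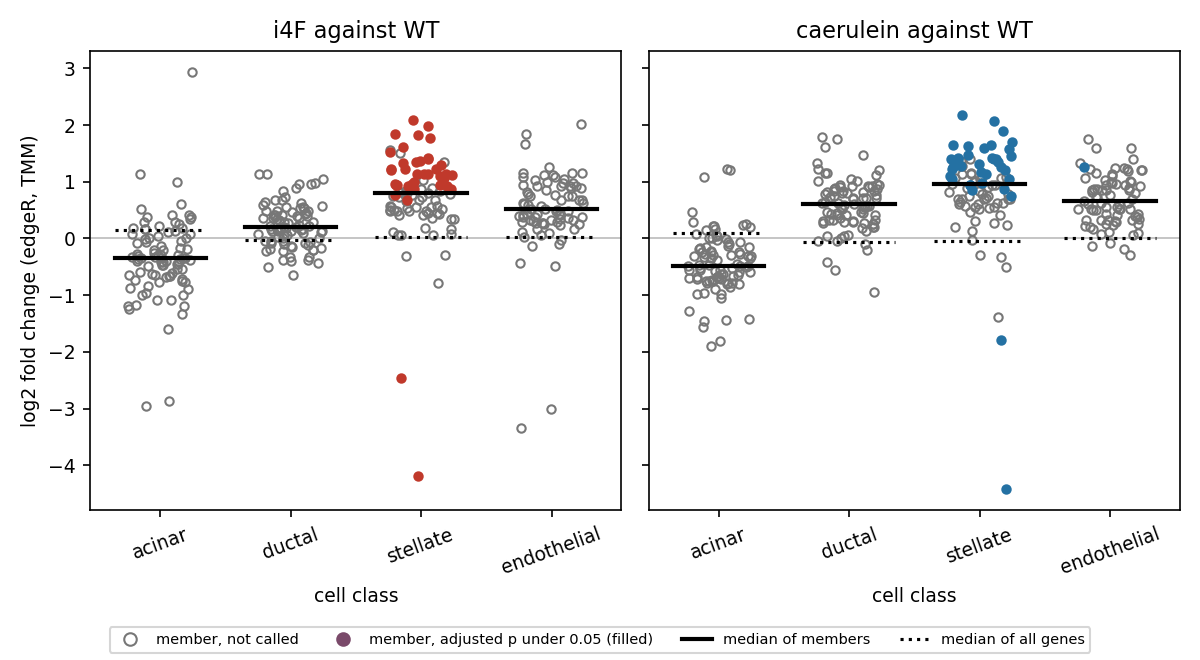
Log2 fold change of every tested member against WT (vertical axis, edgeR with TMM scaling) in 4 cell classes for i4F (left) and caerulein mice (right), with filled points for an adjusted p under 0.05, a solid bar at the members' median and a dotted bar at the median of all genes. In stellate cells 38 and 37 members are filled and the medians are 0.80 and 0.95, whereas no acinar or ductal point is filled and the acinar medians lie at -0.35 and -0.48, the latter being 0.11 without TMM.

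In complex I, 14 of 38 stellate subunits rose in i4F and 13 in caerulein mice. Ndufb1-ps, which RefSeq lists as the protein-coding accessory subunit Ndufb1, showed the largest rise, with 21.8 and 34.1 scaled CPM in WT, 112, 115 and 71.3 in i4F and 80.8 and 61.0 in caerulein mice. Both WT levels lay below all others, and the log2 change was 1.83 (SE 0.32, adjusted p = 0.0203) in i4F and 1.34 (SE 0.34, adjusted p = 0.0399) in caerulein mice. Ndufs6, a zinc-binding accessory subunit needed late in assembly, stood at 66.7 and 89.7 scaled CPM in WT, 196, 193 and 160 in i4F and 190 and 188 in caerulein mice and changed by 1.23 and 1.27. The response was uneven within the complex. The core subunit Ndufs7, which carries an iron-sulfur cluster, was measured at 215 and 257 scaled CPM in WT, 245, 243 and 254 in i4F and 274 and 246 in caerulein mice, and its log2 differences were 0.07 (adjusted p = 0.796) and 0.14 (adjusted p = 0.617). Ndufa13 and Ndufb9, high in most cells, had log2 differences of 0.44 and 0.45 in i4F and 0.96 and 0.57 in caerulein mice and did not pass the test.

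In complex III, 4 of 8 genes rose in each comparison. Uqcrq, a small subunit next to cytochrome b, was measured at 119 and 194 scaled CPM in WT, 640, 641 and 407 in i4F and 645 and 519 in caerulein mice. The lowest treated mouse, i4F 3, still lay far above the higher WT level, and the log2 change was 1.85 (SE 0.33, adjusted p = 0.0211) in i4F and 1.90 (SE 0.35, adjusted p = 0.0207) in caerulein mice. Uqcr11 and the core protein gene Uqcrc1 also rose in both comparisons, by 1.35 and 1.13 in i4F and by 1.41 and 1.05 in caerulein mice. Uqcr10 passed the test in i4F with 1.60 and Uqcrb in caerulein mice with 0.94, while Uqcrh differed from WT by 0.52 and 0.69 without passing.

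In complex IV, 9 of 15 genes tested rose in i4F and 8 in caerulein mice. The gene with the largest rise was Cox5a, a subunit on the matrix side of the complex, at 70.1 and 190 scaled CPM in WT, 694, 617 and 347 in i4F and 574 and 520 in caerulein mice. The WT mice differed widely from each other in this gene, and the log2 change was 2.08 (SE 0.49, adjusted p = 0.0331) in i4F and 2.07 (SE 0.52, adjusted p = 0.0405) in caerulein mice. Cox5b, whose window holds an NRF1 half-site, stood at 160 and 274 scaled CPM in WT, 659, 596 and 414 in i4F and 776 and 578 in caerulein mice, with a log2 change of 1.36 (SE 0.34, adjusted p = 0.0361) and 1.64 (SE 0.36, adjusted p = 0.0307). Cox6a1, the common form of subunit 6a, was measured at 120 and 176 scaled CPM in WT, 321, 274 and 260 in i4F and 411 and 374 in caerulein mice. It rose by 0.95 in i4F and by 1.41 in caerulein mice. Ndufa4 rose from 215 and 277 scaled CPM in WT to 670, 605 and 422 in i4F and 829 and 717 in caerulein mice, by 1.20 (SE 0.27, adjusted p = 0.0301) and 1.65 (SE 0.29, adjusted p = 0.0194). Cox4i1 and Cox8a, the most abundant members of the complex, differed from WT by 0.48 and 0.81 in i4F and by 0.69 and 1.06 in caerulein mice without passing the test.

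In ATP synthase, 9 of 16 genes tested rose in i4F and 8 in caerulein mice. Atp5k, the small membrane subunit e, was measured at 18.7 and 28.7 scaled CPM in WT, 106, 101 and 73.1 in i4F and 83.2 and 57.9 in caerulein mice, which gave a log2 change of 1.98 (SE 0.31, adjusted p = 0.0184) and 1.57 (SE 0.32, adjusted p = 0.0258). Atp5mpl, a small proteolipid bound to the enzyme, stood at 51.6 and 83.7 scaled CPM in WT, 274, 255 and 167 in i4F and 258 and 185 in caerulein mice, a change of 1.78 (SE 0.34, adjusted p = 0.0236) and 1.71 (SE 0.36, adjusted p = 0.0270). All of these levels in treated mice were above WT, and i4F 3 was again the lowest i4F mouse. The c subunit is encoded by 3 genes, and Atp5g1, Atp5g2 and Atp5g3 all rose, by 0.93, 1.52 and 0.93 in i4F and by 1.43, 1.63 and 1.13 in caerulein mice. Atp5b passed the test in i4F with 1.12 and not in caerulein mice with 1.09 (adjusted p = 0.0654), and Atp5d differed by 0.58 and 0.71 without passing.

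Of the 9 assembly factors, edgeR called 0 in i4F against WT, with 2 at an unadjusted p under 0.05 and 1 by DESeq2. In caerulein mice it called Ndufaf2 alone, from 31.6 and 31.2 scaled CPM in WT to 52.6 and 62.9. The median log2 changes of the 9 were 0.41 and 0.31. Ndufaf3 was measured at 44.4 and 45.5 scaled CPM in WT, 37.7, 36.6 and 34.9 in i4F and 47.4 and 41.1 in caerulein mice. Of the 4 pseudogene rows tested, Cox6c2 was called higher in caerulein mice at 5.12 and 11.3 scaled CPM against 0.983 and 2.46 in WT, and such rows can take reads from their parent genes.

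**Figure D3:**
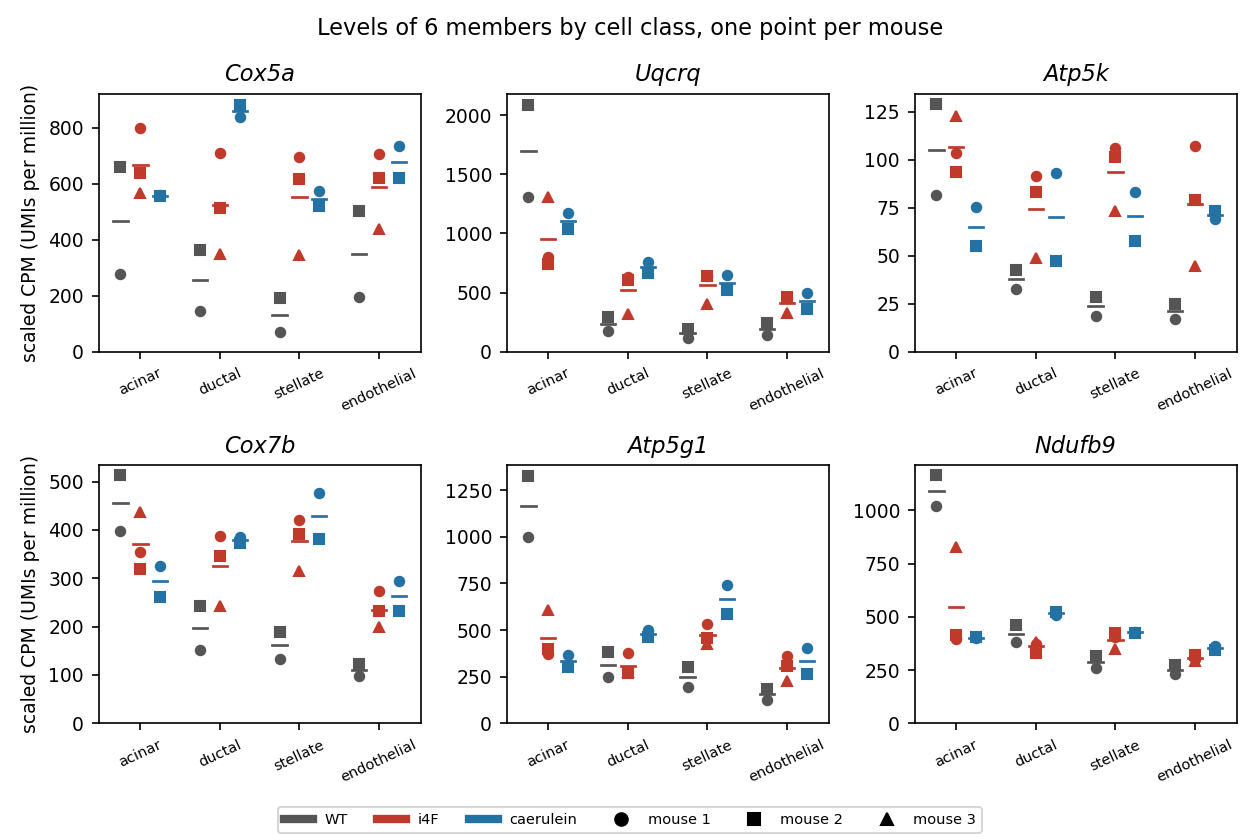
Scaled CPM (CPM after TMM scaling within the class, vertical axes from 0) of 6 members in 4 cell classes, with 1 point per mouse and a bar at the group mean. Stellate Cox5a, Uqcrq and Atp5k lie above WT in all treated mice, while acinar Atp5g1 and Ndufb9 lie below both WT mice in all of them. Since scaling was done per class, heights are compared within a class.

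The stellate changes of i4F and caerulein mice against WT share the WT mice, and their values are therefore only set side by side. Compared directly, i4F and caerulein stellate cells showed no member past the test, with edgeR calling 0 of 90 and 0.459% of all genes. At an unadjusted p under 0.05 there were 7 members, and DESeq2 called 1. The median log2 difference of the members was -0.16 against 0.05 over all genes.

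The number of calls in stellate cells depended on single mice and on the library name series, while the medians of the members stayed between 0.63 and 1.13. For i4F against WT, 0 members were called without WT 2, 1 without WT 1, caerulein 1, caerulein 2 or i4F 2, 2 without i4F 1 and 67 without i4F 3. For caerulein against WT, 0 were called without any single WT or caerulein mouse, 24 without i4F 1, 10 without i4F 2 and 69 without i4F 3. With the library name series as a term in the model, 0 and 0 members were called, and the medians were 1.01 and 0.72. The share of all genes called in these fits is not given here, so that the counts are not read as a result about the members alone.

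The members that fell in the stellate class were the isoforms Cox4i2 and Ndufa4l2. COX4I2 and NDUFA4L2 are isoforms known from cells around vessels and from low oxygen. Cox4i2 was measured in the stellate class at 39.5 and 54.8 scaled CPM in WT, 2.40, 2.04 and 3.93 in i4F and 2.73 and 1.44 in caerulein mice. The log2 change was -4.19 (SE 0.36, adjusted p = 0.00631) and -4.42 (SE 0.42, adjusted p = 0.00863). Ndufa4l2 was at 251 and 272 scaled CPM in WT, 32.4, 32.9 and 78.6 in i4F and 76.3 and 74.9 in caerulein mice, a change of -2.46 (SE 0.40, adjusted p = 0.0185) and -1.79 (SE 0.45, adjusted p = 0.0399).

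Cox4i2 was concentrated in 1 WT label, while Ndufa4l2 was spread over more than 1, with 846 and 1557 UMIs under Quiescent_Pancreatic_Stellate_1 and 674 and 965 under activated pancreatic stellate in WT 1 and WT 2. The WT label activated pancreatic stellate held the pericyte markers, at 4.45% and 3.83% of UMIs, and in i4F and caerulein mice these markers were highest under the label smooth muscle, at 2.39% to 3.84%, which is not part of the stellate class. Both labels are called mural here. Without that WT label the log2 change of Cox4i2 was -0.97 (adjusted p = 0.131) and -1.24 (adjusted p = 0.101), and that of Ndufa4l2 was -1.82 (adjusted p = 0.0300) and -1.15 (adjusted p = 0.106). Over all alternatives the adjusted p ranged from 1.53e-19 to 0.131 and from 2.95e-17 to 0.101 for Cox4i2, and from 2.85e-09 to 0.115 and from 0.00014 to 0.213 for Ndufa4l2. Without that label 35 and 33 members were called higher. The share of all genes called higher in that fit is not given here, so that these counts are not read as a result about the members alone.

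The isoforms of complex IV were therefore compared as shares of UMIs between isoform and common partner, with exact binomial intervals that cover counting error only. In the mural labels, Cox4i2 made up 31.6% and 45.6% of Cox4i1 and Cox4i2 together in WT 1 and WT 2, from 218 of 690 and 459 of 1006 UMIs. The share was 14.1%, 14.5% and 32.3% in i4F 1 to 3 and 19.7% and 23.4% in caerulein mice, whereas in the 85 other sets of cells its median was 0% and its maximum 4.06%. Ndufa4l2 made up 87.4% and 89.4% of the UMIs of Ndufa4 and Ndufa4l2 in WT, 74.9%, 83.3% and 83.8% in i4F and 78.8% and 86.6% in caerulein mural cells, and its median elsewhere was 0.807%. The highest shares elsewhere were those of the WT label Quiescent_Pancreatic_Stellate_1, at 49.5% and 45.8%. In absolute terms the WT 2 mural label held 1055 CPM of Cox4i2 and 2219 CPM of Ndufa4l2.

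Cox6a2, the form of subunit 6a known from heart and skeletal muscle, stood out in 1 WT endocrine label. It took 67.6% (248 of 367 UMIs, 95% interval 62.5% to 72.3%) and 60.0% (372 of 620 UMIs, 95% interval 56.0% to 63.9%) of Cox6a1 and Cox6a2 in the WT endocrine label that names a single cell kind. In the other endocrine labels it took 0% to 13.8%, and in the 83 other sets of cells its median was 0% and its maximum 17.5%, in the B lymphocytes of i4F 3. The endocrine labels differ between groups, since in i4F and caerulein mice 1 label names several endocrine kinds together, so that these shares do not compare like with like. Cox6b2, a form known from testis, took 21.1% and 14.5% of subunit 6b UMIs in WT and 10.3% and 23.6% in caerulein mesothelium, with a median of 0.814% elsewhere. The maximum elsewhere was 13.3% under Activated_Pancreatic_Stellate_2 of i4F 1, which is part of the stellate class and carried mesothelial markers at 0.339%, against 0.464% and 0.450% in WT mesothelium. The other restricted isoforms were close to absent, with 4 UMIs of Cox7b2, 5 of Cox8b and 1 of Cox8c in all libraries, and 745 UMIs of the muscle form Cox7a1 with at most 17.5 CPM.

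**Figure D4:**
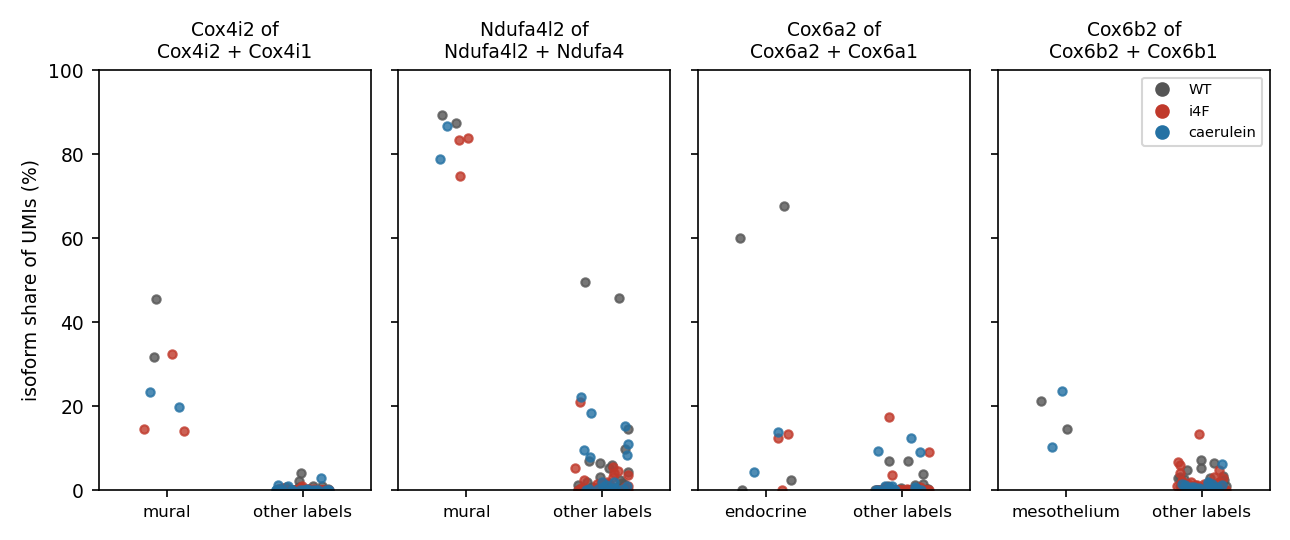
Share of an isoform in the UMIs of isoform and common partner (vertical axis, percent) for Cox4i2, Ndufa4l2, Cox6a2 and Cox6b2, with 1 point per library and label. Mural cells reach 45.6% for Cox4i2 and 89.4% for Ndufa4l2, and the WT endocrine label reaches 67.6% for Cox6a2, against medians under 1% in the other labels.

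Cox7a2l and Cox7a2 were compared as a share as well. COX7A2L (also SCAF1) has been described as joining complexes III and IV into supercomplexes, while COX7A2 is the common subunit. Whether it does so in these mice was not measured. Cox7a2l made up 73.2% and 60.5% of the UMIs of both genes in WT stellate cells, 38.6%, 41.5% and 48.0% in i4F and 32.4% and 42.0% in caerulein mice. In the stellate test Cox7a2 rose by 1.14 and 1.27, whereas Cox7a2l was measured at 422 and 380 scaled CPM in WT, 318, 327 and 339 in i4F and 258 and 311 in caerulein mice and did not pass, with log2 differences of -0.29 (adjusted p = 0.263) and -0.50 (adjusted p = 0.115). In ductal cells the share was 75.4% and 60.8% in WT against 38.6% to 61.8% in treated mice, with i4F 3 above WT 2. In endothelial cells it was 73.2% and 60.5% in WT against 39.6% to 57.6%, with i4F 3 closest to WT 2. In acinar cells it ranged from 44.6% to 57.0%.

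In endothelial cells the fitted difference from WT was above 0 for 72 of 79 members in i4F and 75 in caerulein mice, and all but 1 missed the threshold. The class pools different labels by group. In WT 1 and WT 2 it held 432 and 851 cells labelled Endothelial_1, with member shares of 1.25% and 1.54%, and 690 and 361 cells labelled Endothelial_2, with 1.77% and 1.98%, while the treated mice have the single label Endothelial. The median log2 difference was 0.51 in i4F and 0.66 in caerulein mice, against 0.02 and 0.00 over all genes. In i4F against WT edgeR called 0 of 79 members, where 0.81% of all 8153 genes were called, with 34 members at an unadjusted p under 0.05 and 6 called by DESeq2. In caerulein mice 1 of 79 was called higher, where 3.54% of all genes were called higher, with 36 at an unadjusted p under 0.05 and 7 called by DESeq2.

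The called member was Cox7b, a small subunit of complex IV, at 98.9 and 123 scaled CPM in WT, 294 and 232 in caerulein and 274, 232 and 199 in i4F mice. All treated mice lay above WT, and the log2 change was 1.26 (SE 0.28, adjusted p = 0.0416) in caerulein and 1.08 (adjusted p = 0.0912) in i4F mice. The caerulein call was lost without TMM (adjusted p = 0.0507), with the library name series as a term (adjusted p = 0.251) and when any WT or caerulein mouse or i4F 2 was left out (adjusted p = 0.0747 to 0.427), and the adjusted p over all alternatives ranged from 0.0116 to 0.427. Atp5k was measured at 17.1 and 24.9 scaled CPM in WT, 69.2 and 73.4 in caerulein and 107, 79.0 and 44.5 in i4F mice, with adjusted p-values of 0.0503 and 0.0659. Macrophage markers took 0.0038% to 0.0057% of endothelial UMIs in WT, 0.0193% to 0.0819% in i4F and 0.495% to 0.716% in caerulein mice. Markers of lymphatic endothelium took 0.0084% to 0.0092%, 0.0679% to 0.207% and 0.0851% to 0.100%, whereas in WT mice they were highest under the label Lymph_nodes, at 4.54% and 4.89%, which is not part of the class. Stellate markers took 0.406% to 0.414%, 0.266% to 0.615% and 0.566% to 0.691%. The endothelial markers themselves took 1.44% to 1.49%, 0.983% to 1.15% and 0.858% to 1.24%. In caerulein 1 they took 0.858%, beside 0.72% for macrophage and 0.691% for stellate markers. Immediate early genes, which respond to tissue dissociation, took 1.66% and 2.28% of endothelial UMIs in WT, 0.523%, 0.568% and 1.73% in i4F and 0.914% and 0.994% in caerulein mice, so that i4F 3 lay nearest to WT in this measure as in its member share. The part of these quantities in the difference was not tested. Between i4F and caerulein mice edgeR called 0 of 79 members and 0.601% of all genes, with 2 members at an unadjusted p under 0.05 and 1 by DESeq2.

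In ductal cells, which line the pancreatic ducts, no member passed. Against WT, edgeR called 0 of 87 in i4F and in caerulein mice, where 0.00861% and 3.54% of all 11619 genes were called. There were 9 and 33 members at an unadjusted p under 0.05, and DESeq2 called 1 and 6. The median log2 difference was 0.20 in i4F and 0.61 in caerulein mice, against -0.03 and -0.07 over all genes. Uqcrq was measured at 173 and 296 scaled CPM in WT, 635, 604 and 318 in i4F and 760 and 667 in caerulein mice, and Cox5a at 146 and 362, 707, 512 and 350, and 839 and 881. Their log2 differences between caerulein and WT mice were 1.61 (adjusted p = 0.0621) and 1.76 (adjusted p = 0.0710), and i4F 3 lay near WT 2 in both genes. Immediate early genes took 2.58% and 3.22% of ductal UMIs in WT, 0.687%, 0.870% and 2.91% in i4F and 0.843% and 0.768% in caerulein mice, so that i4F 3 stood with WT in this measure too. Macrophage markers took 0.0017% to 0.0072%, 0.0143% to 0.0930% and 0.112% to 0.146%, stellate markers 0.105% to 0.112%, 0.0454% to 0.403% and 0.229% to 0.238%, and pericyte markers 0.0056% to 0.0124%, 0.0194% to 0.0951% and 0.0340% to 0.0426%. The part of these quantities in the ductal values was not tested. Between i4F and caerulein mice edgeR called 0 of 87 and 0.465% of all genes, with 10 members at an unadjusted p under 0.05 and 0 by DESeq2.

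In acinar cells no member passed either, and the members leaned the other way. Against WT, edgeR called 0 of 90 in i4F and in caerulein mice, where 0.0808% and 0.0359% of all 11134 genes were called. There were 13 and 8 members at an unadjusted p under 0.05, and DESeq2 called 3 and 3, all of them lower. The median log2 difference was -0.35 in i4F and -0.48 in caerulein mice, against 0.14 and 0.10 over all genes. Without TMM the medians were -0.20 and 0.11, against 0.32 and 0.68 over all genes, so that the direction in caerulein mice depended on the scaling while the members stayed below the other genes. Between i4F and caerulein mice edgeR called 0 of 90 and 0.126% of all genes, with 4 members at an unadjusted p under 0.05 and 1 by DESeq2.

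The c subunit gene Atp5g1 had the lowest adjusted p in caerulein acinar cells. Atp5g1 was measured at 1001 and 1323 scaled CPM in WT, 373, 397 and 608 in i4F and 365 and 302 in caerulein mice. Every treated mouse was below both WT mice, and the log2 difference was -1.34 (SE 0.35, adjusted p = 0.108) in i4F and -1.80 (SE 0.40, adjusted p = 0.0787) in caerulein mice by edgeR, with adjusted p = 0.00356 and 0.000184 by DESeq2 and 0.00121 and 0.00109 without i4F 3. Over all alternatives it ranged from 0.000391 to 0.318 and from 0.000184 to 0.412. As a share of the 3 genes for the c subunit, Atp5g1 stood at 67.9% and 75.9% in WT against 53.3%, 55.7% and 61.9% in i4F and 55.7% and 51.6% in caerulein acinar cells. Ndufb9 was measured at 1020 and 1165 scaled CPM in WT, 395, 416 and 827 in i4F and 400 and 403 in caerulein mice, with log2 differences of -1.001 (adjusted p = 0.174) and -1.44 (adjusted p = 0.124). In i4F 3 most acinar cells (2071) carried the label Acinar_1, while in i4F 1 and i4F 2 most (583 and 746) carried Acinar_2, so that the i4F acinar group mixes clusters by mouse. Without Acinar_1, an alternative chosen after seeing the data, 28 of 89 members were called lower than WT in i4F and 7 in caerulein mice, where 14.2% and 9.25% of all genes were called lower. The median UMI number per acinar cell was 431 and 502 in WT, 1933, 2020 and 606 in i4F and 2213.5 and 1322.5 in caerulein mice, with i4F 3 closest to WT in this measure and in Ndufb9. Macrophage markers took 0.0022% to 0.0102% of acinar UMIs in WT, 0.0233% to 0.0872% in i4F and 0.130% to 0.236% in caerulein mice. Mesothelial markers, a list that holds the ductal gene Krt19, took 0.0069% to 0.0075%, 0.0529% to 0.235% and 0.0926% to 0.114%, and stellate markers 0.116% to 0.121%, 0.0563% to 0.179% and 0.224% to 0.250%. Ductal markers took 0.187% to 0.274%, 0.437% to 1.31% and 1.33% to 1.51%. A change within acinar cells and a change in the makeup of the class therefore cannot be told apart. The part of these quantities in the acinar values was not tested.

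Whether the change from WT differed between acinar cells and each other class was tested itself, with limma and voom weights on the difference of log2 CPM between both classes of the same mouse. This test was added after the acinar and stellate results were seen. It cannot tell a change within cells from a change in the makeup of a class. Against stellate cells, 30 of 89 members differed in i4F and 45 in caerulein mice, all with the lower change in acinar cells, where 4.29% and 7.54% of all genes were called in that direction. Against endothelial cells, 12 and 31 of 78 members differed, where 3.86% and 7.86% of all genes were called lower in acinar cells. Against ductal cells, limma called 0 of 87 in i4F, where 0.0984% of all genes were called in either direction, and 21 in caerulein mice, where 5.14% of all genes were called lower in acinar cells.

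Atp5g1 showed the largest of these differences against stellate and endothelial cells in caerulein mice. Its log2 change in acinar cells was lower than in stellate cells by 2.22 (SE 0.32, adjusted p = 0.0205) in i4F and by 3.21 (SE 0.35, adjusted p = 0.00410) in caerulein mice. Against endothelial cells the difference was -2.34 (SE 0.40, adjusted p = 0.0204) and -2.95 (SE 0.44, adjusted p = 0.00500), and against ductal cells -1.37 (adjusted p = 0.113) and -2.47 (SE 0.38, adjusted p = 0.0138). For Uqcrq the difference from stellate cells was -2.60 (SE 0.40, adjusted p = 0.0269) in i4F and -2.49 (SE 0.45, adjusted p = 0.0152) in caerulein mice. The median difference over the members was -1.13 and -1.32 against stellate, -0.998 and -1.23 against endothelial, and -0.61 and -1.02 against ductal cells, with medians over all genes between -0.06 and 0.01. These medians depended on the scaling. Without TMM they were -0.92 and -0.61 against stellate, -0.73 and -0.49 against endothelial, and -0.27 and -0.24 against ductal cells, beside medians over all genes of 0.24 to 0.31 in i4F and 0.70 to 0.76 in caerulein mice. The members thus stayed below the other genes on both scales. Leaving out any WT or caerulein mouse gave 0 calls, except 1 member against endothelial cells in caerulein mice without caerulein 2. Without i4F 1 or i4F 2 the counts were 0 in i4F and 10 to 40 in caerulein mice, where 0 to 37 and 374 to 1042 of all genes were called. Without i4F 3 they were 47 to 76 in all. Over all genes, that fit called 2643 and 2639 of 10167 against ductal and 3754 and 3128 of 10556 against stellate cells. Against endothelial cells it called 2176 and 1814 of 7597. Without TMM, 4 and 20 members were called against stellate, 2 and 6 against endothelial, and 1 against ductal cells in caerulein mice. Of all genes, 83 and 283 of 10556, 41 and 128 of 7597, and 101 of 10167 were called lower in acinar cells on that scale. The ductal count thus lay near the share of all genes.

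**Figure D5:**
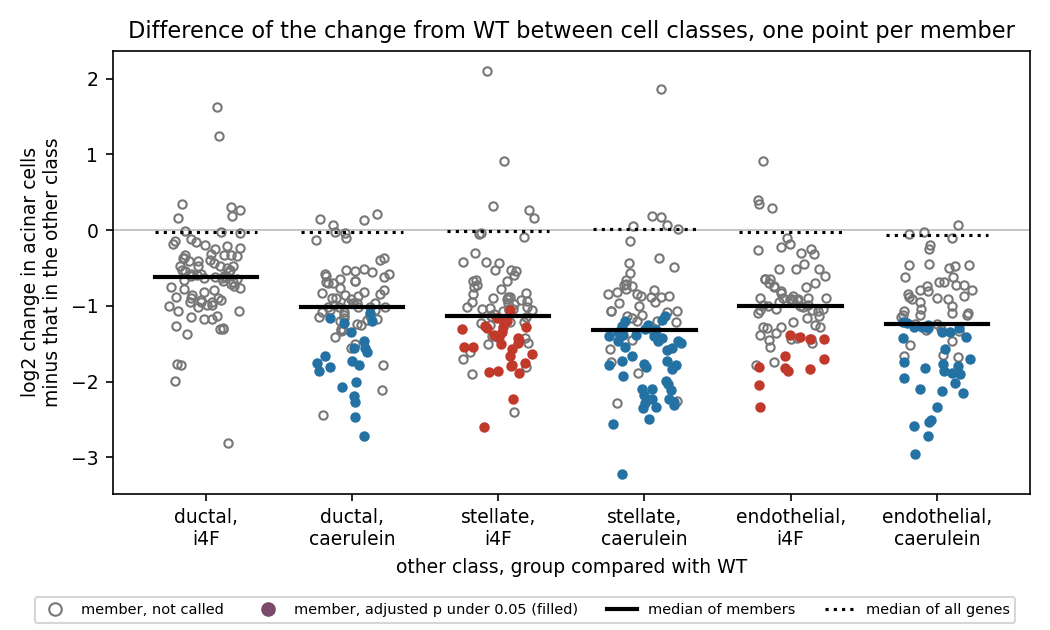
Log2 change against WT in acinar cells minus that in the other class (vertical axis) for every member tested, by class and group, with filled points for an adjusted p under 0.05 (limma), a solid bar at the members' median and a dotted bar at the median of all genes. Medians of the members lie between -0.61 and -1.32, below those of all genes, which lie near 0 with this TMM scaling. Without TMM, medians of the members in caerulein mice lie between -0.24 and -0.61 and those of all genes between 0.70 and 0.76.

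Other genes were taken from 10 lists that hold 146 genes. Besides mitochondrial energy metabolism, the lists cover glycolysis, antioxidant enzymes, immediate early genes and heat shock genes. In stellate cells, edgeR called 33 of the 143 tested in i4F and 16 in caerulein mice against WT, where 20.6% and 17.1% of all genes were called in either direction, so that the share of these genes called lay near that of all genes in i4F and below it in caerulein mice. With the library name series as a term 0 and 0 of them were called. Leaving out any WT or caerulein mouse gave 0 or 1 call, leaving out i4F 1 or i4F 2 gave 0 to 2 in i4F and 1 to 10 in caerulein mice, and leaving out i4F 3 gave 82 and 69, so that the rises below hold for the test with all 7 mice. Of the transcripts of mitochondrial DNA, mt-Atp8 rose in i4F by 0.91 (adjusted p = 0.0500) as 1 of 12 tested, and mt-Nd2 fell by 1.501 (adjusted p = 0.0451) in caerulein mice, and the medians of the 12 were -0.03 and -0.75. Of the list of complex II, cytochromes and electron transfer flavoproteins, 2 of 9 rose in i4F, cytochrome c1 (Cyc1), a subunit of complex III whose symbol the prefixes do not take in, by 1.31 and cytochrome c (Cycs) by 1.11, and 1 of 9 in caerulein mice, the flavoprotein subunit gene Etfb by 0.86. Of 35 other assembly factors, 5 rose in i4F and 3 in caerulein mice, among them Cox18, which inserts COX2 into the membrane, by 2.25 and 2.09.

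Of 17 genes of the citric acid cycle, 4 rose in i4F, with malate dehydrogenase Mdh2 by 1.63, citrate synthase Cs by 1.39 and Dlst by 1.00, and 2 in caerulein mice, with Cs by 1.51. Of 16 genes of glycolysis, 9 rose and 2 fell in i4F, with Eno1 by 2.45, Pkm by 2.33 and Pfkl by 2.17, while Pfkp fell by 0.67 and Hk1 by 0.67. In caerulein mice 4 rose and 1 fell, with Pkm by 2.09, Pgk1 by 1.87 and Pfkl by 1.84, while Pfkp fell by 0.93. A further list holds, among other genes, the ATPase inhibitor, the carriers of ADP and phosphate and supercomplex factors. In i4F 5 of 12 were higher, with Usmg5 by 1.69, Higd1a by 1.56 and the ADP/ATP carrier Slc25a5 by 1.44. In caerulein mice it was 3 of 12, led by the ATPase inhibitor Atpif1 with 1.60.

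Antioxidant enzymes rose in 4 of 12 cases in i4F, with Sod2 by 1.58, Prdx5 by 1.24 and Prdx2 by 1.04, and in 1 of 12 in caerulein mice, Prdx2 by 1.27. Of 14 regulators of mitochondrial biogenesis, edgeR and DESeq2 called 0 in either comparison, with 0 at an unadjusted p under 0.05 and medians of -0.04 and -0.14. Of 8 immediate early genes edgeR called 0 in either, with 2 and 4 at an unadjusted p under 0.05, 2 and 3 by DESeq2, and medians of -1.20 and -1.52. Of 8 heat shock genes 1 rose in i4F, the mitochondrial chaperone Hspd1 by 1.23, and by edgeR 0 passed in caerulein mice, with 4 at an unadjusted p under 0.05 and 3 by DESeq2. The medians of the immediate early genes were thus below 0 where those of the members were above 0, and their part in the member levels was not tested.

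In the other classes few of these genes passed. In endothelial cells of caerulein mice, Prdx5 rose by 1.78 (adjusted p = 0.0168) and Atpif1 by 1.57 (adjusted p = 0.0333), and edgeR called 2 of 121 in caerulein mice, where 4.11% of all genes were called in either direction, and 0 in i4F mice, with 17 and 22 at an unadjusted p under 0.05 and 5 and 1 by DESeq2. Of these 2 calls, 0 were kept without WT 1 or caerulein 1 or with the library name series as a term, and the adjusted p over all alternatives ranged from 9.59e-05 to 0.298 for Prdx5 and from 0.000987 to 0.357 for Atpif1. In acinar and ductal cells edgeR called 0 of 139 in i4F and in caerulein mice, with 30 and 23 in acinar and 25 and 40 in ductal cells at an unadjusted p under 0.05, and with 9 and 9, and 3 and 17, called by DESeq2. The acinar medians in i4F mice ranged from -0.53 for the immediate early genes to 1.42 for glycolysis, and in caerulein mice from -1.68 for mitochondrial DNA to 0.66 for glycolysis.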

How the data were processed

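Pancreata of 7 mice were dissociated and profiled by droplet single-cell RNA sequencing. The authors aligned reads with Cell Ranger (version not given in the sources used here) to mm10, filtered cells and clustered them in Seurat, and deposited raw UMI counts per gene and cell in 1 table per condition, with a cluster label and the percent of mitochondrial UMIs, computed by the authors, for each cell. SoupX is named for removal of free RNA, and whether it preceded deposition is not stated, although all values are whole numbers. No doublet caller was run here. Every column was mapped to a mouse, and groups followed the sample labels.

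UMIs were summed per mouse and class, over cells whose label holds the word acinar, ductal, stellate or endothelial. Genes were tested in R 4.3.3 with edgeR 4.0.16 (TMM, filterByExpr, quasi-likelihood test, two-sided, all 7 mice in 1 fit) and, as an alternative, DESeq2 1.42.0. Differences between classes were tested with limma 3.58.1. Adjustment was by Benjamini-Hochberg over all genes. The main edgeR fit, for stellate and acinar cells, and the limma fit between classes were tested on simulated data. The alternatives were not. Descriptions used Python 3.11.15, numpy 2.4.6, pandas 2.3.3, scipy 1.17.1 and matplotlib 3.10.9. Labels with under 20 cells in a mouse (2 of 94) were left out of the description by label.

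The members, the gene lists and the tests were chosen with earlier results of these data known. Named were the 3 members with the highest mean CPM of each symbol prefix (Nduf without assembly factors, Uqcr, Cox, Atp5), the isoforms with restricted expression and their partners, and in each comparison the called members that changed most (up to 5 higher and 5 lower, mean log2 CPM of at least 4), with up to 3 genes per list and direction. Ndufs6, Ndufs7, Uqcr10, Uqcr11, Uqcrc1, Ndufaf2, Ndufaf3 and Cox6c2, and Atp5k in endothelial and Uqcrq and Cox5a in ductal cells, were chosen after their values were seen. The alternatives were another normalization, no filter on low counts, a term for the library name series, a replicate block, a minimum of 500 genes per cell, each mouse left out, and labels left out after seeing the data.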

Additional observations from a re-analysis of the deposited data

Results flagged for a closer look

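The change from WT differed between acinar cells and another class, by a test of the difference itself, for 30 of 89 members in i4F and 45 in caerulein mice against stellate cells, for 12 and 31 of 78 members against endothelial cells, and for 21 of 87 members against ductal cells in caerulein mice. In each of these sets the acinar change was the lower one for every member called. Of all genes, 4.29% and 7.54% were called in that direction against stellate, 3.86% and 7.86% against endothelial, and 5.14% against ductal cells. In i4F mice limma called 0 of 87 members against ductal cells, where 0.0984% of all genes were called in either direction. These counts rest on single mice. With any WT or caerulein mouse left out, the median difference of the members against stellate cells was -1.16 to -1.11 in i4F and -1.34 to -1.28 in caerulein mice. Leaving out any WT or caerulein mouse gave 0 calls, except 1 against endothelial cells in caerulein mice without caerulein 2, while leaving out i4F 3 gave 47 to 76. Without TMM the counts were 4 and 20 against stellate, 2 and 6 against endothelial and 1 against ductal cells in caerulein mice. Of all genes, 83 and 283 of 10556, 41 and 128 of 7597, and 101 of 10167 were called lower in acinar cells on that scale. The ductal count thus lay near the share of all genes. Over all genes, the fits without i4F 3 called 1814 to 3754.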

How the results depend on the processing

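The counts of called members ranged over the mice left out from 0 to 31, 0 to 15 and 0 to 4 in acinar cells (i4F against WT, caerulein against WT, i4F against caerulein, the order kept below), 0 to 10, 0 to 29 and 0 to 0 in ductal, 0 to 67, 0 to 69 and 0 to 2 in stellate, and 0 to 22, 0 to 15 and 0 to 1 in endothelial cells, and between classes 0 to 47 and 0 to 60 (ductal), 0 to 76 and 0 to 70 (stellate), and 0 to 60 and 0 to 59 (endothelial). Except in the comparison between i4F and caerulein mice in ductal and endothelial cells, the highest count was that without i4F 3, the shallowest library. Between classes, the calls over all genes were also highest without i4F 3, at 1814 to 3754. The counts within classes in this section stand without the share of all genes called in the same fit. They are therefore not read as a result about the members alone. DESeq2 called 3, 3 and 1 members in acinar, 1 and 6 against WT in ductal, 60 for caerulein against WT and 1 for i4F against caerulein in stellate, and 6, 7 and 1 in endothelial cells. Without the filter on low counts the counts were 1 and 1 in acinar, 3 and 6 in ductal, 2 for i4F against caerulein in stellate, and 10, 13 and 2 in endothelial cells. With the library name series as a term they were 0 and 0 in stellate, and 1 and 0 in endothelial cells against WT, WT being the only group with mice in both series. In cells with at least 500 genes, endothelial counts were 1, 3 and 1. Without TMM, the median of all genes against WT lay at -0.14 and -0.19 in stellate, -0.19 and -0.24 in ductal and -0.05 and -0.11 in endothelial cells, and that of the members at 0.65 and 0.81, 0.04 and 0.45, and 0.45 and 0.56. On this scale endothelial counts were 0 for caerulein against WT and 1 for i4F against caerulein, and between classes 1 (ductal, caerulein), 4 and 20 (stellate) and 2 and 6 (endothelial). Of all genes, 101 of 10167, 83 and 283 of 10556, and 41 and 128 of 7597 were called lower in acinar cells there. With totals that leave out the 100 highest genes, 1 endothelial member was called in i4F, and between classes 8 (ductal, caerulein), 5 and 21 (stellate) and 2 and 13 (endothelial). Of all genes, 295 of 10167, 153 and 403 of 10556, and 107 and 266 of 7597 were called lower in acinar cells with these totals. On that scale the summed acinar level in caerulein mice was -0.25 relative to WT. Among alternatives chosen after seeing the data, leaving out the WT label Endothelial_2 gave 2 and 3 endothelial calls against WT, and leaving out the i4F label Acinar_1 gave 28, 7 and 1 acinar calls.

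The replicate numbers are not stated to mark shared litters or days, and deviations of same-numbered mice correlated at -0.597 to -0.334 between WT and caerulein mice at -0.186 to 0.0279 between WT and i4F mice and at -0.0826 to 0.2002 between caerulein and i4F mice, so the numbers were not taken as pairs. With the replicate block, which gives i4F 3 a term of its own, the counts were 27, 7 and 5 in acinar, 6 and 15 against WT in ductal, 58, 62 and 1 in stellate, and 11, 5 and 1 in endothelial cells. With the caerulein numbers crossed, an alternative added after seeing the data, they were 31, 13 and 5, 9 and 28, 70, 72 and 4, and 28, 21 and 1. The counts with a block, too, stand without the share of all genes called and are not read as a result about the members alone. Of the values of single genes under all alternatives, 529 kept their side of the threshold, 354 lost the call and 13 gained it, and none changed direction. The cause of these changes was not tested.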
